A study of Mus musculus with 6 samples.

Results

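The Rab small GTPases are the largest branch of the Ras superfamily and mark the membranes of the cell. A Rab protein binds membrane in its GTP form, recruits effectors that tether, move or fuse vesicles, and is taken off again in its GDP form. Exchange factors switch Rabs on, GTPase-activating proteins switch them off, and prenylation by the Rab geranylgeranyl transferase with an escort protein anchors them in membrane. In mouse oocytes, vesicles that carry Rab11a organise the actin network through which the meiotic spindle moves, and Rab3a acts in the exocytosis of cortical granules.

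Members were all probes that the array's annotation gives to a single gene whose symbol is Rab followed by a number and, in some, by a letter. This gave 53 probes and 51 genes among the 33012 probes of the array, of which 14411 carry a single symbol. Rab5b and Rab11b had 2 probes each. Related genes with longer names (Rab-interacting proteins, for example) are not members.

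The series compared 3 Ago2-deficient mature oocytes with 3 wild-type oocytes at the germinal vesicle (GV) stage, the stage before meiosis resumes, on 1-colour chemiluminescent Applied Biosystems mouse arrays with 1 oocyte on each. The mutant oocytes came from Ago2F/F, Zp3-Cre females, in which the zona pellucida glycoprotein 3 promoter drives Cre in growing oocytes and deletes the floxed gene for Argonaute2, the protein that carries small RNAs to their target transcripts. The GV oocytes came from wild-type adult females and were freed of cumulus cells with hyaluronidase. The labels say that these GV oocytes were taken from oviducts, where ovulated eggs are found, and the stage is used here as labelled. Genotype and stage differ together between the groups, so their parts in any difference cannot be told apart. The methods describe ovulated oocytes as coming from adult females. Whether the oocytes of a group came from separate animals is not stated in the sources used here. The p-values therefore measure the spread between these oocytes only. All cDNA was brought to the same amount before labelling, so a difference here is one of a transcript's share and not of the RNA in an oocyte.

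Values are log2 signals, quantile normalized over the 6 arrays by the authors. Detection of a probe means a signal at least 3 times the noise given by the scanner. A gene was tested if detected in each of the 3 oocytes of one group or the other, and called if its adjusted p was under 0.05 and its fold change over 2. A level is set only against the same probe's level in other oocytes. The probe sequences were not analysed here, so it is not known how far a probe tells close relatives such as Rab1a and Rab1b apart.

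As a check on the labels, the Ago2 probe read 6.67, 6.49 and 6.94 in the mutants against 7.88, 6.25 and 6.93 in GV oocytes, and it was detected in 1 GV oocyte alone. Whether it lies inside the deleted exons is not stated, so it checks no genotype. Of 16 oocyte markers on the array, 9 were detected throughout the Ago2-deficient group and 15 throughout the GV group, with a summed linear signal of 1400000 to 1620000 against 5600000 to 6080000. Ddx4, Figla, Kit and Zp2 were detected in no Ago2-deficient oocyte. Of 16 cumulus and granulosa markers, 1 was detected throughout the Ago2-deficient group and 4 throughout the GV group, with a summed signal of 60100 to 115000 against 65400 to 85200. Foxo1 was detected throughout both groups, and Hsd17b1, Inha and Nr5a2 throughout the GV group. Hsd17b1 and Inha were detected in no Ago2-deficient oocyte. Amh, Cd44, Fshr, Has2 and Tnfaip6 were detected on no array. The part of the lower oocyte marker signal in the Rab results was not tested.

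Fewer Rab probes reached the detection limit on the Ago2-deficient arrays than on the GV arrays, and the same held for all probes. In the Ago2-deficient oocytes 12, 17 and 16 of the 53 probes were detected (22.6%, 32.1% and 30.2%), against 24, 28 and 28 in the GV oocytes (45.3%, 52.8% and 52.8%). The counts did not overlap, and averaged 15.0 ± 2.65 and 26.7 ± 2.31 (SD, n = 3 oocytes each, p = 0.1 in a two-sided exact permutation test, which cannot go lower with 3 against 3). All probes showed a gap of the same direction, with 14.0%, 20.2% and 20.6% detected on the Ago2-deficient arrays and 34.3%, 32.4% and 32.3% on the GV arrays. Probes that were not detected also had a higher raw signal in the mutant oocytes, with array medians of 199 ± 47.0 against 77.2 ± 6.25 intensity units (SD, n = 3 each). The part of this background in the lower detection was not tested.

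**Figure D1:**
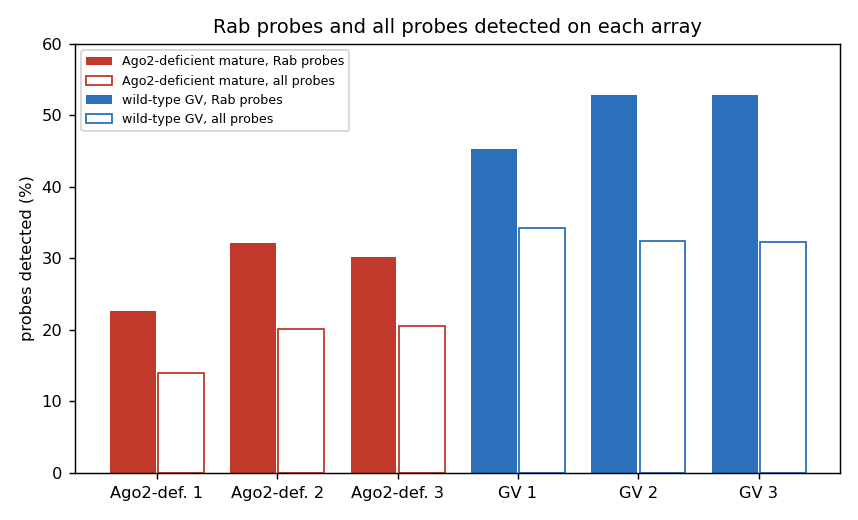
Share of probes detected (percent, signal at least 3 times the noise) on each array, with the 3 Ago2-deficient mature oocytes left of the 3 wild-type GV oocytes, for the 53 Rab probes and for all 33012 probes. Between 22.6% and 32.1% of the Rab probes were detected in an Ago2-deficient oocyte and between 45.3% and 52.8% in a GV oocyte.

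Of the 51 Rab genes, 21 were tested and 30 were not. Among the 21, Rab12, Rab11b and Rab8a were called higher in Ago2-deficient oocytes. Rab5c, Rab11a, Rab38, Rab10, Rab31, Rab1b, Rab32, Rab35, Rab5a and Rab4a were called lower, and 8 genes were not called. These 3 higher and 10 lower calls of 21 stand against 17.4% and 44.8% of the 7915 genes tested on the array, so neither share is far from that of the array. The median log2 difference was -1.95 over the tested Rab genes and -1.39 over all tested genes. The filter takes part in this split, since 14 of the 21 were tested only because all 3 GV oocytes detected them, and 0 only because all 3 Ago2-deficient oocytes did. Of the tested Rab genes 7 were detected in no Ago2-deficient oocyte, against 32.8% of all genes tested. A further 5 (Rab1a, Rab6a, Rab10, Rab14 and Rab32) were detected in 2 Ago2-deficient oocytes, and Rab33b and Rab34 in 1. In the 7 Rab genes detected in all 6 oocytes, 3 were higher, 1 was lower (Rab4a) and 3 were not called (Rab2a, Rab3a and Rab7), where 43.5% of the 2497 such genes on the array were higher and 20.2% lower.

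**Figure D2:**
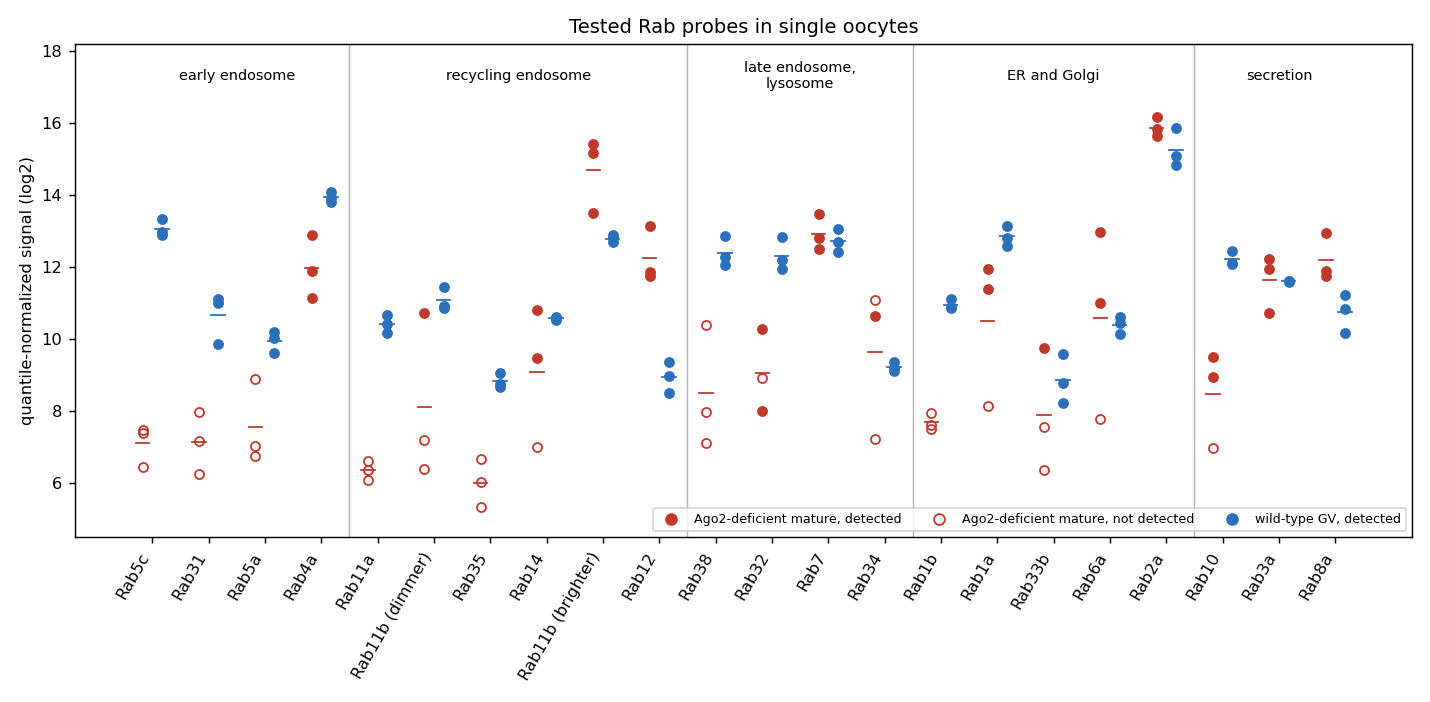
Quantile-normalized log2 signal of each tested Rab probe in each oocyte, grouped by the membranes the Rab acts on, with Ago2-deficient mature oocytes drawn left of wild-type GV oocytes open symbols where the probe was not detected, and short bars at the group means. Rab5c lies between 6.45 and 7.47 on the Ago2-deficient arrays and between 12.90 and 13.34 on the GV arrays, while Rab2a lies above 14.8 in all 6.

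The early endosome group has 8 genes on the array, of which 4 were tested and all 4 were called lower, where 44.8% of all tested genes were. Its median log2 difference was -2.95, against -1.39 over the array. Of these 4, Rab5c, Rab31 and Rab5a passed the filter only through the GV oocytes and could be tested only because they were high there, so the count does not set the group apart. Rab5 proteins drive the fusion of incoming vesicles with early endosomes. Rab5c read 7.41, 6.45 and 7.47 in Ago2-deficient oocytes against 12.98, 12.90 and 13.34 in GV oocytes. No Ago2-deficient oocyte detected it, and the gap is many times the spread in either group. For a gene undetected throughout a group a nominal bound on the fold is given, marked below by the words at least. It sets the detected mean against the other group's mean, using the higher of the gene's own value and that array's lowest detected signal. Those lowest signals were 6.13, 6.02 and 6.31 on the Ago2-deficient arrays, so for most of these genes the gene's own value was used. The bound is then the fitted fold itself. It carries no allowance for spread and can fall when an array is left out. Rab5c was at least 62.4-fold lower (fitted log2 difference -5.96 ± 0.40 SE, limma adjusted p = 0.000134), and this bound was 49.7-fold without Ago2-deficient oocyte 2. Rab31, a Rab of the Rab5 branch that acts between the Golgi and endosomes, read 6.26, 7.19 and 7.97 in Ago2-deficient oocytes against 9.86, 11.02 and 11.11 in GV oocytes. It too was detected in GV oocytes alone, with a bound of 11.5-fold lower or more (fitted difference -3.52 ± 0.57 SE, limma adjusted p = 0.00207).

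Rab5a read 7.05, 8.90 and 6.76 in Ago2-deficient oocytes, all undetected, and 10.05, 10.20 and 9.62 in GV oocytes. It was at least 5.22-fold lower (fitted difference -2.38 ± 0.61 SE, limma adjusted p = 0.0133). That bound was 8.27-fold without Ago2-deficient oocyte 2, the highest of its group, and 3.94-fold without Ago2-deficient oocyte 3. The call was lost without GV oocyte 2 (adjusted p = 0.0514) and with cyclic loess in place of the quantile scaling (-0.62, adjusted p = 0.286). Rab4a, which returns receptors from early endosomes to the cell surface, was the member of the group that every oocyte detected. It read 11.16, 11.89 and 12.91 in Ago2-deficient oocytes against 13.81, 13.92 and 14.09 in GV oocytes. Its groups did not overlap, and the difference was -1.95 ± 0.49 (SE, limma adjusted p = 0.0126).

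Calls in the recycling endosome group went in both directions, though 1 of the 2 higher, Rab11b, read the other way on its second probe. Of its 6 genes 5 were tested, with 2 higher, 2 lower and 1 not called, and 3 of the 5 passed the filter only through GV oocytes. Over all tested genes 17.4% were higher and 44.8% lower, and these counts are too small to set the group apart. Rab11a, which marks recycling endosomes, read 6.10, 6.37 and 6.63 in Ago2-deficient oocytes and 10.67, 10.18 and 10.43 in GV oocytes. It was detected in all GV oocytes and in no mutant oocyte, with little spread in either group, and was at least 16.6-fold lower (fitted difference -4.06 ± 0.33 SE, limma adjusted p = 0.000196). Rab35, which acts in fast recycling and in cytokinesis, read 6.03, 5.34 and 6.68 in Ago2-deficient oocytes against 9.06, 8.67 and 8.77 in GV oocytes. It was at least 5.88-fold lower (-2.82 ± 0.43 SE, limma adjusted p = 0.00154), and was not called when arrays were centred on the genes detected in all oocytes (-1.32, adjusted p = 0.106). Both genes were below detection in the whole mutant group.

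Rab12 had the highest fitted difference of the tested Rabs. It directs cargo such as the transferrin receptor from recycling endosomes to lysosomes. It read 11.86, 13.14 and 11.75 in Ago2-deficient oocytes and 8.50, 8.97 and 9.38 in GV oocytes. All oocytes detected it and the groups did not overlap, with means of 12.25 ± 0.77 and 8.95 ± 0.44 (SD, n = 3 each) and a difference of 3.30 ± 0.49 (SE, limma adjusted p = 0.00144). It stayed above 0 under all 5 scalings tried, though scaling to a common median left 0.99 (adjusted p = 0.163). Rab14, which cycles between early endosomes and the Golgi, read 7.02, 10.81 and 9.48 in Ago2-deficient oocytes and 10.53, 10.61 and 10.60 in GV oocytes. The groups overlapped through Ago2-deficient oocyte 2, and the difference of -1.48 had a 95% interval of -3.67 to 0.70 (limma adjusted p = 0.196). It was -2.33 and called lower without that oocyte (adjusted p = 0.0397), and -0.44 without oocyte 1 (adjusted p = 0.42). It was also called lower with a common median (-3.49), no scaling (-2.39) and centring on the genes detected in all oocytes (-1.28).

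Rab11b, a close relative of Rab11a, gave opposite readings on its 2 probes. The brighter probe read 15.43, 15.16 and 13.51 in Ago2-deficient oocytes and 12.69, 12.81 and 12.89 in GV oocytes. It was detected in all 6 and was higher by 1.90 ± 0.55 (SE, limma adjusted p = 0.0214). The dimmer probe read 7.20, 10.74 and 6.41 in Ago2-deficient oocytes, of which only oocyte 2 detected it, and 10.92, 10.86 and 11.46 in GV oocytes. Its difference was -2.96 ± 1.09 (SE, limma adjusted p = 0.0501), just outside the call, and it was called lower without Ago2-deficient oocyte 2 (-4.28, adjusted p = 0.00101). The rise on the brighter probe was 2.50 without Ago2-deficient oocyte 3. That call was lost without Ago2-deficient oocyte 2 (adjusted p = 0.0601) or any GV oocyte (0.0712, 0.0649 and 0.0609 without oocytes 1, 2 and 3), and the sign turned under a common median (-1.36) or no scaling (-0.26). The direction of Rab11b is therefore unsettled.

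Promoter windows are shown for Rab5c and Rab11a, which had the lowest and next lowest fitted differences, and for Rab12, which had the highest. Each window holds the 250 bases before and the 50 after the gene's start, 5′ to 3′ on the gene's strand, from RefSeq on GRCm38.p6. Capitals mark the GC box, the Sp1-type motif GGGCGG or its reverse complement CCGCCC. All 3 genes lie on the minus strand. The Rab5c window is chr11:100738166-100738465, the Rab11a window chr9:64737707-64738006 and the Rab12 window chr17:66519621-66519920.
Rab5c: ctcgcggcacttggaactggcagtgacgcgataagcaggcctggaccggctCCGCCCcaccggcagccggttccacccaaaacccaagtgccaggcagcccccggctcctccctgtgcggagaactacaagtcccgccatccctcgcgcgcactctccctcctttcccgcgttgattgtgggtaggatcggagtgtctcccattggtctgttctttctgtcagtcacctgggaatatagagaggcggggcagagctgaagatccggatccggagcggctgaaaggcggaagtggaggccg
Rab11a: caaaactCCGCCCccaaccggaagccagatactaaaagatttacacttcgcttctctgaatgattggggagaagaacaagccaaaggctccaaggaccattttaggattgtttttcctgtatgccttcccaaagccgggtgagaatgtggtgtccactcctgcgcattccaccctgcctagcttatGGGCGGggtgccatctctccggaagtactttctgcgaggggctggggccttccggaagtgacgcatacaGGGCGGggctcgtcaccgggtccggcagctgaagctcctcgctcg
Rab12: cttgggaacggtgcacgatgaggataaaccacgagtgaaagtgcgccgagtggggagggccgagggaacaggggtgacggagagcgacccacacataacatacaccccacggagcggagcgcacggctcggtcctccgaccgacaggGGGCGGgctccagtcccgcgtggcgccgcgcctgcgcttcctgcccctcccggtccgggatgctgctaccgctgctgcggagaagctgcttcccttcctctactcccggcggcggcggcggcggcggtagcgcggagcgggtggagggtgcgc
The Rab5c window held 1 GC box and 23 CpG, the Rab11a window 3 and 16, and the Rab12 window 1 and 37.

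A window was found for 42 of the 51 Rab genes, and these windows were richer in GC than those of most genes. A GC box on either strand was present in 30 of the 42 Rab windows (71.4%) and in 35.9% of all 27025 windows of the same length. The median number of CpG was 21.5 in Rab windows and 7 in all windows, and TATAAA on either strand was present in 7.14% and 14.2%. Among Rabs with a window, a GC box was present in 1 of 3 called higher, in 7 of 8 called lower and in 5 of 7 not called. These numbers are too small to set the called groups apart, and a match describes letters and not a bound site.

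Rabs of late endosomes, lysosomes and autophagy included both losses and genes with no call. Of 8 genes 4 were tested, with 0 higher, 2 lower and 2 not called, and 3 of the 4 passed the filter only through GV oocytes. The array had 17.4% of tested genes higher and 44.8% lower, and so few genes do not set the group apart. The lower pair, Rab38 and Rab32, are close relatives that build lysosome-related organelles such as the melanosome. Rab38 read 7.13, 7.98 and 10.41 in Ago2-deficient oocytes, all undetected, and 12.88, 12.28 and 12.06 in GV oocytes. It was at least 14.9-fold lower (fitted difference -3.90 ± 0.84 SE, limma adjusted p = 0.0066), a bound that was 9.27 without Ago2-deficient oocyte 1 and 28.9 without oocyte 3. Rab32 read 8.92, 10.30 and 8.01 in Ago2-deficient oocytes and 12.84, 11.94 and 12.20 in GV oocytes. It differed by -3.25 ± 0.63 (SE, limma adjusted p = 0.00426), and by -3.86 without Ago2-deficient oocyte 2. In both genes every mutant value lay below every GV value.

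Rab7, which brings late endosomes to fusion with lysosomes, was seen in all oocytes at like quantile-normalized levels. It read 12.50, 12.80 and 13.49 in Ago2-deficient oocytes and 13.05, 12.42 and 12.69 in GV oocytes. The groups overlapped, and the difference of 0.21 had a 95% interval of -0.73 to 1.15 (limma adjusted p = 0.659). This depended on the scaling. Rab7 was called lower with a common median (-3.14, adjusted p = 0.000376) and with no scaling (-2.04, adjusted p = 0.00591). Rab34, which acts in lysosome positioning and in the early steps of cilium formation, read 11.08, 7.24 and 10.64 in Ago2-deficient oocytes and 9.20, 9.36 and 9.13 in GV oocytes. The difference of 0.42 had an interval of -1.95 to 2.80 (limma adjusted p = 0.728), and it moved with the oocytes included: without Ago2-deficient oocyte 2 it was 1.63 and called (adjusted p = 0.00843), and without oocyte 1 it was -0.29 (adjusted p = 0.8). Rab34 was called higher with cyclic loess (1.67, adjusted p = 0.0443) and lower with a common median (-1.46, adjusted p = 0.0402).

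With the quantile scaling, most tested Rabs of the early secretory pathway were not called. Of 14 genes that act between the endoplasmic reticulum and the Golgi or within the Golgi, 5 were tested. Among them 1 was lower and 4 were not called, with a median log2 difference of -0.97, and 4 of the 5 passed the filter only through GV oocytes. All tested genes gave 17.4% higher, 44.8% lower and a median of -1.39, and 5 genes are too few to set the group apart. Rab1b, needed for transport out of the endoplasmic reticulum, read 7.63, 7.50 and 7.95 in Ago2-deficient oocytes and 10.89, 11.13 and 10.86 in GV oocytes. It was detected in no mutant oocyte and was at least 9.61-fold lower (fitted difference -3.26 ± 0.31 SE, limma adjusted p = 0.0003). Its relative Rab1a, which acts at the same step, read 8.16, 11.40 and 11.96 in Ago2-deficient oocytes and 13.15, 12.60 and 12.82 in GV oocytes. Every mutant value of Rab1a was below every GV value, but the mutant oocytes spread widely (SD 2.05 against 0.28, n = 3 each). The difference of -2.35 (95% interval -4.68 to -0.02, limma adjusted p = 0.0731) was not called, and was called without Ago2-deficient oocyte 1 (-1.18, adjusted p = 0.0259) or oocyte 3 (-3.08, adjusted p = 0.0328). Rab1a was called lower under each of the other scalings. It was -5.06 with a common median, -3.96 with no scaling, -1.25 with cyclic loess and -2.85 with centring on the genes detected in all oocytes.

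Rab2a, which acts between the endoplasmic reticulum and the Golgi, read 15.64, 15.83 and 16.16 in Ago2-deficient oocytes and 15.86, 14.83 and 15.08 in GV oocytes. All oocytes detected it strongly, and the difference of 0.62 had a 95% interval of -0.32 to 1.57 (limma adjusted p = 0.205). Rab6a, which acts in traffic through the Golgi, read 7.79, 11.01 and 12.98 in Ago2-deficient oocytes and 10.63, 10.44 and 10.15 in GV oocytes. The mutant oocytes lay on both sides of the GV oocytes (difference 0.19, 95% interval -2.73 to 3.10, limma adjusted p = 0.902), and the difference was 1.59 without oocyte 1 and -1.0 without oocyte 3. Rab6a was called higher with cyclic loess (1.95, adjusted p = 0.0341) and lower with a common median (-2.00, adjusted p = 0.0357). Rab33b, a Golgi Rab that also serves autophagosome formation, read 7.57, 6.38 and 9.75 in Ago2-deficient oocytes and 9.58, 8.80 and 8.24 in GV oocytes. Its difference of -0.97 (95% interval -3.07 to 1.13, limma adjusted p = 0.363) was called lower without Ago2-deficient oocyte 3 (-1.90, adjusted p = 0.0307) and was -0.21 without oocyte 2 (adjusted p = 0.828).

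Rabs of regulated and polarized secretion moved in both directions. Of 11 genes 3 were tested, with 1 higher, 1 lower and 1 not called, and 1 of the 3 passed the filter only through GV oocytes. With 17.4% of all tested genes higher and 44.8% lower, 3 genes do not set the group apart. Rab8a and Rab10 are relatives that take Golgi-derived vesicles to the plasma membrane. Rab8a read 11.89, 12.96 and 11.76 in Ago2-deficient oocytes and 10.18, 11.24 and 10.83 in GV oocytes. Every mutant value was above every GV value, and the difference was 1.46 ± 0.48 (SE, limma adjusted p = 0.0335). That call was lost without Ago2-deficient oocyte 2 (adjusted p = 0.0719), GV oocyte 1 (0.115) or GV oocyte 3 (0.0854), and the sign turned under a common median (-1.59) or no scaling (-0.49).

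Rab10 read 8.96, 6.99 and 9.50 in Ago2-deficient oocytes and 12.46, 12.11 and 12.10 in GV oocytes. It was lower by more than the spread of either group (-3.74 ± 0.67 SE, limma adjusted p = 0.00301), and by -2.99 without Ago2-deficient oocyte 2. Rab3a read 10.74, 12.23 and 11.95 in Ago2-deficient oocytes and 11.62, 11.62 and 11.59 in GV oocytes. With the quantile scaling both groups centred on the same value, at a difference of 0.03 (95% interval -1.06 to 1.13, limma adjusted p = 0.956). The mutant oocytes spread far more (SD 0.79 against 0.02, n = 3 each). Rab3a was called lower with a common median (-3.05, adjusted p = 0.000332) and with no scaling (-1.95, adjusted p = 0.00796).

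**Figure D3:**
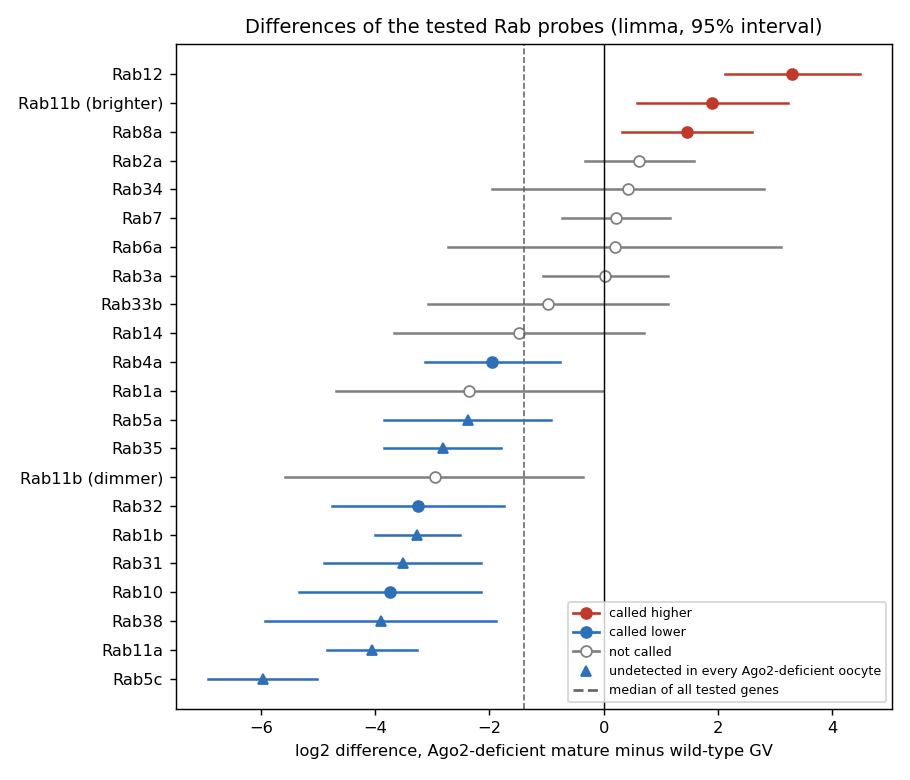
Fitted log2 difference of each tested Rab probe (Ago2-deficient mature oocytes less wild-type GV oocytes, n = 3 each) with its 95% interval from limma, and a dashed line at the median of all tested genes (-1.39). The differences run from -5.96 for Rab5c to 3.30 for Rab12, and triangles mark the 7 genes that no Ago2-deficient oocyte detected.

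The wider spread in Rab3a was the usual case. The SD within the group was larger in the Ago2-deficient oocytes than in the GV oocytes for 20 of the 21 tested Rab genes, with a median of 0.88 against 0.24. Over all 7915 tested genes it was larger for 6342, with a median of 0.74 against 0.28. The filter bears on this comparison, since 14 of the 21 Rabs and 65.3% of all tested genes passed it only through the GV oocytes. Its part in the wider spread was not tested. The median signal of the tested Rabs was 8.16, 10.30 and 10.41 in Ago2-deficient oocytes against 10.89, 11.24 and 11.11 in GV oocytes. Ago2-deficient oocyte 1 was the lowest, and without it the median difference was -1.18 over the tested Rabs and -1.21 over all tested genes, so the Rab median no longer lay below that of the array. All tested genes had array medians of 8.54, 9.71 and 9.75 against 10.53 in each GV oocyte.

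How arrays were scaled set the number of Rabs on each side. With a common median 0 of 21 Rabs were higher and 20 lower, where 312 and 6220 of all 7915 tested genes were. With no scaling 1 and 14 Rabs were, against 611 and 4774 of all tested genes. Cyclic loess gave 5 and 10, against 1955 and 2510. Centring on the genes detected in all oocytes gave 1 and 11, against 1304 and 3140. The calls thus moved over the whole array and not in Rabs alone. The median of all tested genes moved with the scaling too, at -3.08, -1.97, -0.36 and -0.86 in that order. The median of the Rabs was -3.53, -2.43, -0.62 and -1.32. A common median, no scaling and centring differ only by a constant for each array. The gap between the medians is therefore bound to be the same in them (-0.46) and counts as a single result. With cyclic loess the gap was -0.26. Of the 13 called Rabs, 8 kept their direction and call under every alternative that held them. These were Rab5c, Rab11a, Rab38, Rab10, Rab31, Rab1b, Rab32 and Rab4a, all of them lower. All but Rab4a passed the filter only through GV oocytes, so their shared direction follows in part from the filter. The alternative limited to genes detected in all oocytes did not hold them, and it gave 3 higher and 1 lower of 7 Rabs.

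**Figure D4:**
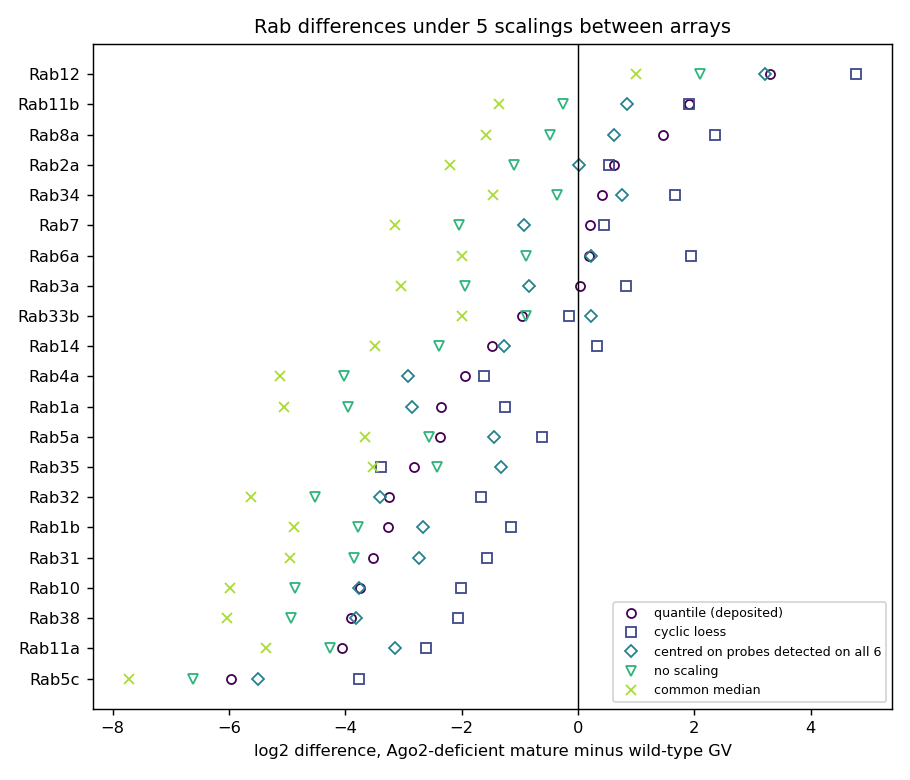
Fitted log2 difference (Ago2-deficient mature oocytes less wild-type GV oocytes) of each tested Rab gene under 5 scalings between the arrays, 1 symbol a scaling and 1 line a gene. Rab12 is above 0 under all 5, while Rab11b and Rab8a lie below 0 under a common median and with no scaling.

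The other 30 Rab genes, with 31 probes, were seen too rarely to be tested. Of these probes 14 were detected on no array: Rab2b, Rab3c, Rab7b, Rab9b, Rab15, Rab17, Rab19, Rab27b, Rab28, Rab29, Rab39, Rab39b, Rab40c and Rab44. They include neuronal secretory Rabs such as Rab3c. A further 11 probes were detected on 1 array, 4 on 2 and 2 on 3. In Ago2-deficient oocytes alone, 6 probes were each detected in 1 oocyte, those of Rab20, Rab30, Rab3b, Rab40b, Rab43 and one of Rab5b. In GV oocytes alone, Rab33a and Rab4b were detected in 2 oocytes, and Rab24, Rab27a, Rab6b, Rab8b and the other Rab5b probe in 1. Rab13, Rab18, Rab37 and Rab3d were detected in both groups.

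Some of these probes were bright in a lone mutant oocyte. Rab40b read 11.69, 6.51 and 6.56 in Ago2-deficient oocytes and 6.53, 7.04 and 7.22 in GV oocytes. Rab3b read 11.26, 7.63 and 6.91 in Ago2-deficient oocytes and 6.85, 6.46 and 7.13 in GV oocytes. Rab43 read 6.75, 7.28 and 10.28 in Ago2-deficient oocytes and 6.99, 6.63 and 7.18 in GV oocytes. In each case 1 oocyte stood far above the other 5, which says nothing of its group. Rab13, which acts at tight junctions, read 9.59, 11.20 and 10.15 in Ago2-deficient oocytes, detected in 2, and 8.58, 9.31 and 8.36 in GV oocytes, detected in 1. Its groups did not overlap, but it was not tested.

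The proteins that load, switch and read Rabs were measured on the same arrays. A list of regulators and effectors chosen by role held 97 genes on the array, of which 42 were tested, with 1 higher, 23 lower and 18 not called and a median log2 difference of -1.59, against 17.4% higher, 44.8% lower and -1.39 over all tested genes. The filter bears on this count too, since 32 of the 42 were tested only through the GV oocytes, among them 20 of the 23 called lower. The GTPase-activating proteins, mostly TBC-domain proteins that switch Rabs off, gave 0 higher, 6 lower and 11 not called of 17 tested. Exchange factors, which switch Rabs on, gave 0 higher, 5 lower and 3 not called of 8. Chaperones and prenylation enzymes gave 0 higher and 3 lower of 3, and effectors 1 higher, 9 lower and 4 not called of 14.

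The 3 tested genes for lipid anchoring and membrane delivery were called lower (44.8% over the array), and all 3 passed the filter only through GV oocytes. Rabggtb and Rabggta, the subunits of the Rab geranylgeranyl transferase, were at least 15.1-fold and 6.58-fold lower, and Rabac1, a prenylated Rab acceptor, was at least 3.71-fold lower. Centring on the genes detected in all oocytes ended the calls of Rabggta and Rabac1, and cyclic loess that of Rabac1.

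Among the effectors, losses were led by Rufy1 and Myo5b in fitted difference. Rufy1, an effector of early endosome Rabs, read 6.84, 7.38 and 7.04 in Ago2-deficient oocytes, all undetected, and 13.75, 13.29 and 13.56 in GV oocytes. It was at least 87.2-fold lower (fitted difference -6.45 ± 0.33 SE, limma adjusted p = 0.000108). Myo5b, the myosin motor that moves Rab11 vesicles along actin, read 13.80, 13.22 and 13.92 in Ago2-deficient oocytes and 18.16, 18.55 and 18.44 in GV oocytes. It was detected in all 6 and was lower by a wide margin (-4.74 ± 0.34 SE, limma adjusted p = 0.000159). Rab11fip1, another Rab11 effector, was detected in GV oocytes alone and was at least 15.7-fold lower.

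Eea1, the Rab5 effector that tethers early endosomes, was the one effector called higher. It read 11.35, 12.49 and 12.34 in Ago2-deficient oocytes and 7.65, 8.93 and 10.07 in GV oocytes. The groups did not overlap, and the difference was 3.18 ± 0.67 (SE, limma adjusted p = 0.00621), with 2.56 and 3.77 when GV oocytes 1 and 3 were left out. Under a common median it was 0.97 and not called (adjusted p = 0.266). The sign was opposite to that of Rab5a and Rab5c.

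Among the GAPs, Tbc1d1 and Tbc1d15 were at least 19.2-fold and 13.9-fold lower. Tbc1d8 differed by -4.22 ± 1.21 (SE, limma adjusted p = 0.0207). It was still detected in 2 Ago2-deficient oocytes, and its difference was -2.73, -4.83 and -5.10 without Ago2-deficient oocytes 1, 2 and 3. Its call was lost when any GV oocyte was left out (adjusted p = 0.0691, 0.0546 and 0.0626 without oocytes 1, 2 and 3). Of the exchange factors for Rab5, Rabgef1 and Gapvd1 were at least 7.64-fold and 6.01-fold lower, and both calls were lost with cyclic loess (adjusted p = 0.0555 and 0.155). Ccz1, part of the exchange factor for Rab7, differed by -2.51 ± 0.58 (SE, limma adjusted p = 0.00876), and by -1.89 without Ago2-deficient oocyte 1.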

How the data were processed

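RNA of single oocytes was amplified, labelled with digoxigenin and hybridised to Applied Biosystems arrays by the authors. Per the labels and the column names, the deposited intensity of each probe is the scanner signal without scaling between arrays, the deposited score is its signal-to-noise ratio, and a flag code stands beside it. The authors also deposited log2 values, quantile normalized over the 6 arrays, which were used here. The series table held the same values, less 2675 spots whose flag code reached 5000, of which 0 were in tested Rabs. The software of the scanner is not given in the sources that were used.

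The 8018 probes with a score of at least 3 on all arrays of either group entered a fit by limma (version 3.58.1, under R version 4.3.3, with lmFit and eBayes, two-sided), and the Benjamini-Hochberg adjustment ran over all of them. Where a gene had several such probes, the brightest stood for it. The fit was checked on simulated data with the same spread in both groups. That check does not cover the wider spread of the Ago2-deficient oocytes or values below detection. All tested Rabs are named. Of the regulators, up to 3 called genes a class and direction with the largest differences are named. The members, lists and tests were chosen with earlier results of these data known. Rab roles and regulators were assigned by hand. All 53 Rab probes had a gene identifier in the RefSeq gene table, with 0 symbols changed. Alternatives covered scaling, filters, the variance model, probe choice, a replicate block and each array left out. Figures were made with matplotlib 3.10.9 (Python 3.11.15).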

Additional observations from a re-analysis of the deposited data

How the results depend on the processing

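The number of Rabs called higher was the least settled count. It was 0 with a common median, 1 with no scaling, 1 with centring on the genes detected in all oocytes, 5 with cyclic loess, 1 with no filter, 1 with ordinary t-statistics, and 1 to 3 with 1 array left out (1 without GV oocyte 1 or GV oocyte 3). The number called lower was 20 of 21 with a common median and 1 of 7 among genes detected in all oocytes. Calls over the array moved too, with 312 higher and 6220 lower of 7915 genes with a common median. Cyclic loess gave 1955 and 2510 of these genes. No filter gave 1706 and 2960 of 32441, and genes detected in all oocytes gave 1128 and 543 of 2497. The median Rab difference was -3.53 with a common median, -0.62 with cyclic loess, 0.03 with no filter and 0.62 among genes detected in all oocytes. Regulators and effectors called higher were 0 with a common median, 4 with cyclic loess, 3 with no filter, 2 with the mean of a gene's probes and 1 to 2 with 1 array left out (2 without Ago2-deficient oocyte 1 or 3), and those called lower were 37 with a common median, 14 with cyclic loess and 3 among genes detected in all oocytes.

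Replicate numbers are shared between the groups but did not pair the oocytes, since deviations from the group means correlated at -0.0487, 0.0275 and -0.0339 across probes and only oocyte 2 matched its own number best. With the number as a block, 3 Rabs were higher and 10 lower, and 2 regulators or effectors were higher and 23 lower.

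Of 467 values of single Rabs under the alternatives, 397 kept their direction and side of the threshold, 17 lost a call, 26 gained one and 27 turned sign, most of them in genes not called. With a common median and with no scaling, the differences were -1.36 and -0.26 for Rab11b, -1.59 and -0.49 for Rab8a, -2.20 and -1.10 for Rab2a, -1.46 and -0.36 for Rab34, -3.05 and -1.95 for Rab3a, -2.00 and -0.89 for Rab6a, and -3.14 and -2.04 for Rab7. All of these genes were called lower with a common median, and Rab3a and Rab7 also with no scaling. Rab11b was -0.53 as the mean of its probes, Rab14 was 0.33 with cyclic loess, and Rab34 was -0.26 with array weights. With centring Rab33b was 0.22, Rab3a -0.84 and Rab7 -0.93. With 1 array left out, Rab34 ran between -0.29 and 1.63, Rab3a between -0.26 and 0.48, Rab6a between -1.0 and 1.59 and Rab7 between -0.07 and 0.43. Of 273 values of the named regulators, 263 kept direction and call, 10 lost a call and 0 turned sign. Fits with an array left out kept the probes tested and the deposited normalization of all 6 arrays. The number of arrays, 3 a group, limits the precision, and a gene below detection in a group has only a bound. The causes of these shifts were not tested.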
